A study of Mus musculus with 2 samples.

Results

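The major histocompatibility complex (MHC) genes of the mouse and the genes that load their products with peptide were followed through 2 single-cell RNA libraries, 1 labelled KO and 1 labelled WT for Runx3. The set comprised every feature whose symbol starts with H2- and 11 further genes named by symbol (B2m, Cd74, Ciita, Nlrc5, Tap1, Tap2, Tapbp, Erap1, Calr, Pdia3 and Rfx5). It came to 56 of the 55357 features listed, of which 45 had an H2- symbol and 48 lay on chromosome 17. By role, 13 were class II genes, 3 were the classical class I chains with B2m, 30 were non-classical class I genes, 6 belonged to peptide loading and 3 were regulators. The last member, H2-Ke6, sits in the same region but encodes a dehydrogenase and no MHC chain.

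The library labelled KO carries the genotype label RUNX3 ko and the other library RUNX3 wt, and both have colon as their tissue. The series text speaks of RUNX3-/- mice in which tumour models were set up, and of the part Runx3, a factor that cytotoxic lymphocytes depend on, plays for natural killer (NK) cells in colorectal cancer. Neither the labels nor the series text give strain, age, number of animals, the deleted part of the gene, the tumour model or any enrichment of the cells. Cells were captured in microwells with barcoded beads, and the second DNA strand was primed at random positions, per the labels' protocols.

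MHC class I molecules pair a heavy chain with beta-2 microglobulin, the product of B2m, and show peptides from inside the cell to CD8 T cells and NK cells. Nearly every nucleated cell makes them, and the factor Nlrc5 drives their genes. MHC class II molecules show peptides taken up from outside to CD4 T cells, are made mainly by dendritic cells, B cells and activated macrophages, and depend on the factor Ciita. In the gut and in tumours, class II on macrophages separates states: recently arrived cells gain it as they mature, and some tissue-resident macrophages carry little of it.

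The library labelled KO held 6573 barcodes with 62465176 UMIs (unique molecular identifiers, each standing for 1 captured RNA molecule) and the WT library 8800 barcodes with 85367638 UMIs. Over all barcodes the median was 8074 UMIs in KO and 8559.5 in WT. The filter passed 5513 of the KO barcodes and all 8800 of the WT barcodes, so it acted on the KO library alone. After likely doublets were also left out, 5194 KO and 8343 WT cells were kept, with medians of 9350.5 UMIs per cell in KO and 8281 in WT. The libraries had 17 barcode sequences in common. Runx3 RNA was present in the library labelled KO, at 192 CPM (UMIs per 1000000) over all cells against 255 CPM in WT, and at 832 CPM in NK cells against 709.9 CPM in WT, so the counts do not settle the label, and the part of the gene that was deleted is not given. The 8 markers of epithelium, which lines the colon, summed to only 38.4 CPM in KO and 36.8 CPM in WT. With 1 library per genotype label no comparison has a replicate check, no test was made, and all intervals are 95% intervals that cover counting error only.

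The library labelled KO was a mixture of cells of both sexes, whereas the WT library was male. Of the KO cells, 2840 (54.7%) were female-type, with Xist and no Y-linked gene, 1250 (24.1%) were male-type, with a Y-linked gene and no Xist, and 419 (8.07%) carried both. Of the WT cells, 6629 (79.5%) were male-type, 1 was female-type and 2 carried both. The KO cells therefore came from at least a male and a female source, and in female-type cells genotype, sex and animal cannot be told apart. The summed levels of class II, class I, B2m and peptide loading genes are given for all cells of a class and again for its male-type cells alone.

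Cells were assigned to classes by marker genes that are not members of the set. The markers placed 3910 KO cells (75.3%) and 6532 WT cells (78.3%) in 1 of 14 classes. Macrophages were the largest class, with 2920 KO and 4753 WT cells. Another 8 classes had at least 20 cells in each library: 141 KO and 107 WT monocytes, 35 and 62 type 1 dendritic cells, 97 and 122 type 2 dendritic cells, 86 and 138 mature dendritic cells, 77 and 246 NK cells, 160 and 672 CD8 T cells, 157 and 182 CD4 T cells, and 118 and 183 mesenchymal cells.

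Upstream of their starts, class II and class I genes share short control elements, and 7 promoters are shown because their genes carry the main results below. They come from RefSeq (GRCm38.p6) and run from 250 bases before to 50 bases after the gene start, 5′ to 3′ in the direction of transcription. Capitals mark 3 motifs found on either strand: ATTGG, the letters bound by the factor NF-Y and part of the Y element of MHC promoters; a pair of TTTC with any 2 bases between them, the core of interferon response elements; and GGGGATTCC, part of the site of NF-kappa B known from class I genes. The regions are chr17:34287774-34288073 on the minus strand for H2-Aa, chr17:34305617-34305916 on the plus strand for H2-Eb1, chr17:34152941-34153240 on the plus strand for H2-DMb1, chr17:34000298-34000597 on the minus strand for H2-K1, chr17:35262844-35263143 on the plus strand for H2-D1, chr17:35438905-35439204 on the plus strand for H2-Q7 and chr2:122147437-122147736 on the plus strand for B2m.
H2-Aa: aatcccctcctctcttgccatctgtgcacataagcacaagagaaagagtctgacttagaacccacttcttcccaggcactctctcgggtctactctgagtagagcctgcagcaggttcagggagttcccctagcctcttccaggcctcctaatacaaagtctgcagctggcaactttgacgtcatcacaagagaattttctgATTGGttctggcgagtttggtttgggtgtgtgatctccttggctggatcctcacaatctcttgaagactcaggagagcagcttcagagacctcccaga
H2-Eb1: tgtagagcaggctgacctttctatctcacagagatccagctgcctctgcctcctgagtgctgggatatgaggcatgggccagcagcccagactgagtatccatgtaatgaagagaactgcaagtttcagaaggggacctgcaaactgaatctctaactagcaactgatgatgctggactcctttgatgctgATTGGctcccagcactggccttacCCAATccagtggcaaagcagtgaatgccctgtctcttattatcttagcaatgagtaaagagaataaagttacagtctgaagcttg
H2-DMb1: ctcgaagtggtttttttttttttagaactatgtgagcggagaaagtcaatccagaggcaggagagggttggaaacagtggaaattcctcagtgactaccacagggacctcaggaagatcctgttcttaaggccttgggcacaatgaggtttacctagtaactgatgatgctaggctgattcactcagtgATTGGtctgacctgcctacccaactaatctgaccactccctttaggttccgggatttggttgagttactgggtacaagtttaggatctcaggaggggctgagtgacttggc
H2-K1: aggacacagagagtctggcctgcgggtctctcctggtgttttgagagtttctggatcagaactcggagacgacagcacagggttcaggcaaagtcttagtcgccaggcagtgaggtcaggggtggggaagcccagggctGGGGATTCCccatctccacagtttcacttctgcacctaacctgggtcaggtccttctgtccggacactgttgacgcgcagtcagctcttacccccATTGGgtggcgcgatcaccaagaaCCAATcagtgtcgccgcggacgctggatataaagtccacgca
H2-D1: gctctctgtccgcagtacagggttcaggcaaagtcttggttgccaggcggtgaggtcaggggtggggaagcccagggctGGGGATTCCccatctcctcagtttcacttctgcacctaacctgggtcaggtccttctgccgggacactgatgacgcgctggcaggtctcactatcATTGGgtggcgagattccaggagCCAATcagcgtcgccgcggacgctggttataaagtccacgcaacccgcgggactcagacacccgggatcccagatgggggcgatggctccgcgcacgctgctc
H2-Q7: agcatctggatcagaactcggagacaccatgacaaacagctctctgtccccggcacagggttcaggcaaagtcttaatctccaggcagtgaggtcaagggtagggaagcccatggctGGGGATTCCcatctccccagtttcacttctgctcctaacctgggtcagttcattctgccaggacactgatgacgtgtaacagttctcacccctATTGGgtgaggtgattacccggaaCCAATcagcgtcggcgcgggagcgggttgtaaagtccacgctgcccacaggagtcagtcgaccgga
B2m: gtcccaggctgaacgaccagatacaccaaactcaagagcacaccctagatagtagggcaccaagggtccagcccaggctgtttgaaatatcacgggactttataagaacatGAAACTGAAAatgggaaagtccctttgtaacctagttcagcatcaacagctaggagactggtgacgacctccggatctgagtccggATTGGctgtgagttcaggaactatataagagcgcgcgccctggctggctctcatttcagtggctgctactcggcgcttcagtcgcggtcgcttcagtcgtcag

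Promoters were listed for 39 of the 56 members. ATTGG on either strand stood in 34 of the 39, against 37.9% of the 27025 promoters in the table. The longer CTGATTGG, which contains ATTGG, stood in 19 of the 39 (48.7%) against 4.31% of all. The exact TTTC pair was found in 4 members (B2m, Erap1, H2-T23 and H2-T22) and in 3.49% of all promoters. Near forms of the interferon element were not searched. The lack of a match in H2-K1, H2-D1 and H2-Q7 therefore does not show that they lack such an element. GGGGATTCC stood in 70 promoters of the whole table (0.259%), and 4 of them belonged to H2-K1, H2-D1, H2-Q6 and H2-Q7. In the printed class II promoters the first ATTGG begins at position -48 from the start in H2-Aa, -59 in H2-Eb1 and -61 in H2-DMb1. Several of these genes lie within one stretch of duplicated copies, so the shared letters are not independent observations, and a match is a description of the sequence and no evidence of binding.

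Over all cells, 36 of the 56 members had at least 20 UMIs in the 2 libraries together and were measured, 7 had 1 to 19 UMIs, and 13 had none. The 13 without a UMI were H2-Q3, H2-T3, H2-M1, H2-M9, H2-M11, H2-M10.1 to H2-M10.6, H2-M10.5-ps1 and H2-Pa, nearly all of them class I-like genes of the H2-M and H2-T region with narrow expression. H2-Ea, the class II gene for the E alpha chain, which is silent in mouse strains of the b haplotype, had 5 UMIs in KO and 9 in WT, whereas its partner H2-Eb1 had 220821 and 379304. The remaining members with under 20 UMIs (H2-Q1, H2-Q2, H2-Bl, H2-M5, H2-M6-ps and H2-Pb) had at most 6 in KO and 13 in WT. All 13 members at 0 and the 7 below 20 UMIs are left out of the counts that follow.

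**Figure D1:**
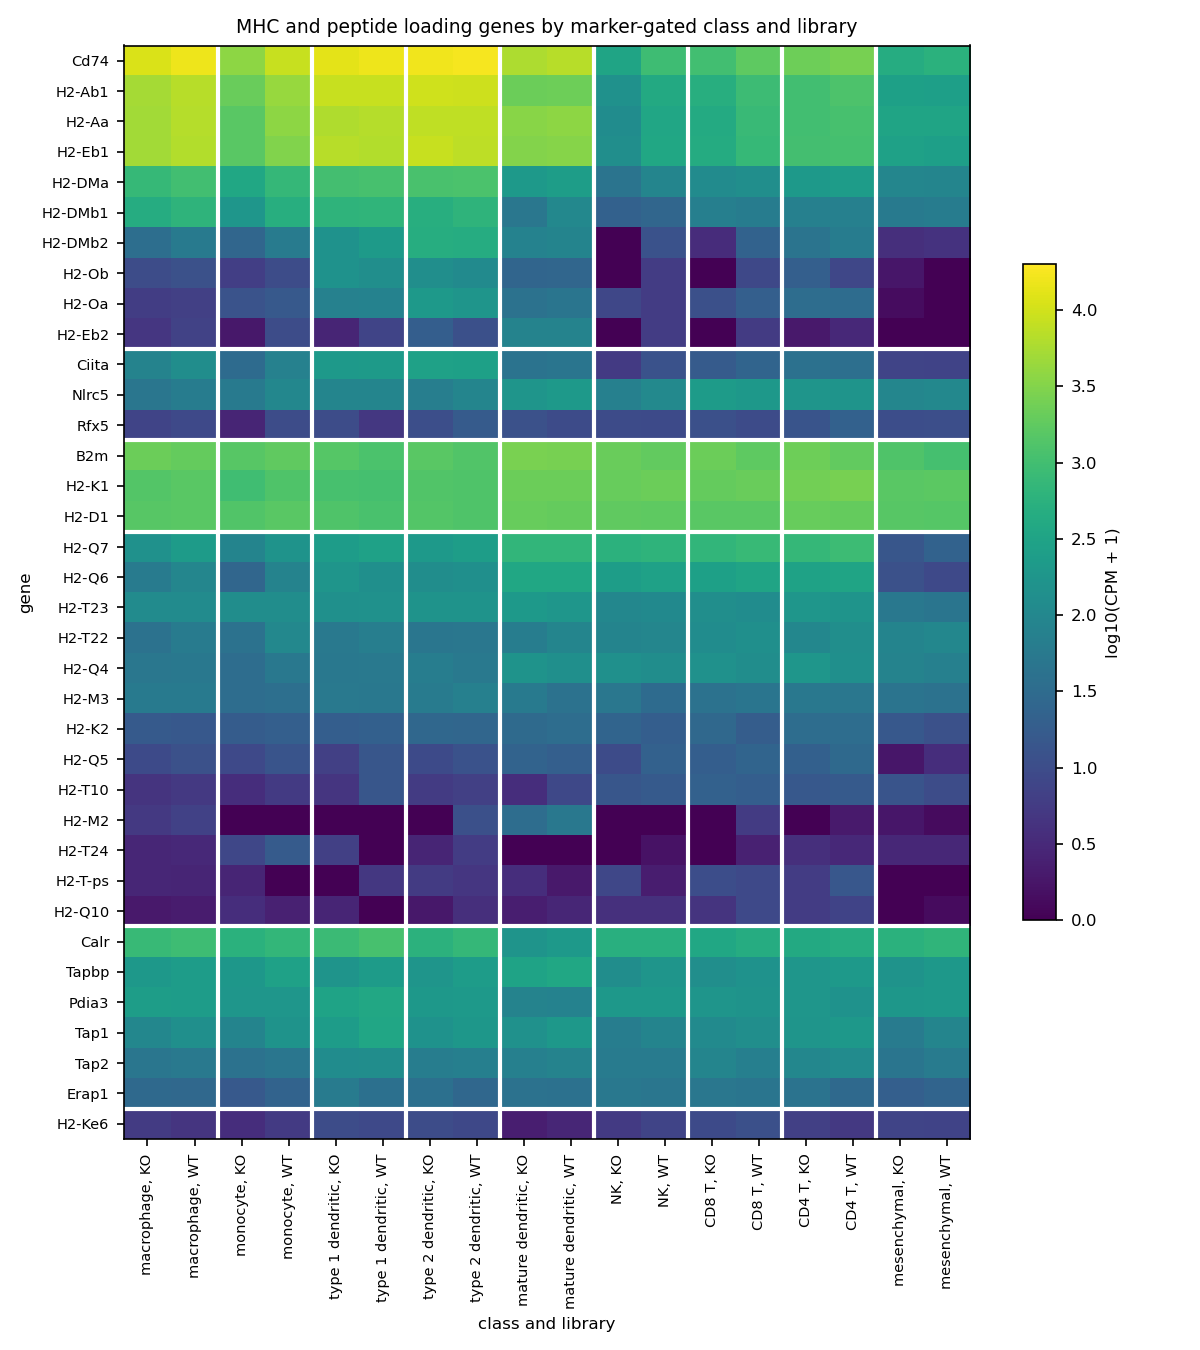
Level of the 36 measured members (rows, grouped by role) in the 9 cell classes, each class with the KO library left of WT, as log10 of CPM plus 1. Class II genes stand out in dendritic cells and macrophages, classical class I genes and B2m are high in every class, and H2-Q6 and H2-Q7 are highest in lymphocytes and mature dendritic cells.

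Class II RNA separated the cell classes in the same order in both libraries at the top. Type 2 dendritic cells held most, with a sum over the class II genes of 44851 CPM in KO and 44799 CPM in WT, followed by type 1 dendritic cells with 36826 and 39613 CPM and by macrophages with 27898 and 37369 CPM. Monocytes had 9424 CPM in KO and 21298 CPM in WT, and mature dendritic cells, which are known to stop making class II RNA after activation, 15045 and 16790.4 CPM. In cells that make little or no class II, the sums were 803 CPM in KO and 2178 CPM in WT for NK cells, 2547 and 4402 CPM for CD8 T cells, 5692 and 6491 CPM for CD4 T cells, and 1502 and 1559 CPM for mesenchymal cells. The mesenchymal value shows how much class II RNA appears in a class that is not known for it.

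The KO library was lower than WT in class II in 8 of the 9 classes, with the interval below 1 in 7. The ratio of KO over WT was 0.747 in macrophages (0.745 to 0.748), 0.442 in monocytes (0.431 to 0.454), 0.930 in type 1 dendritic cells (0.913 to 0.946) and 0.896 in mature dendritic cells (0.875 to 0.918). Type 2 dendritic cells were level, at 1.00 (0.989 to 1.01), and so were mesenchymal cells within counting error, at 0.963 (0.923 to 1.01). Lymphocyte ratios were 0.369 in NK cells (0.336 to 0.403), 0.579 in CD8 T cells (0.556 to 0.601) and 0.877 in CD4 T cells (0.846 to 0.909). Without the few cells richest in class II RNA, the KO sum over all sex types was higher than WT in CD8 and CD4 T cells. Male-type KO CD8 T cells alone stood below that WT sum, as given below. Among male-type cells alone, the lymphocyte ratios were further below 1, at 0.302 in NK cells (0.246 to 0.366, with 19 KO cells), 0.201 in CD8 T cells (0.181 to 0.222, with 56 KO cells) and 0.735 in CD4 T cells (0.694 to 0.777, with 45 KO cells). Male-type type 1 dendritic cells stood at 0.907 (0.883 to 0.932), with 10 KO cells, and mesenchymal cells at 0.583 (0.512 to 0.662), with 5 KO and 14 WT cells. Over all kept cells the sums were 22166 CPM in KO and 29570.3 CPM in WT, a ratio of 0.750.

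**Figure D2:**
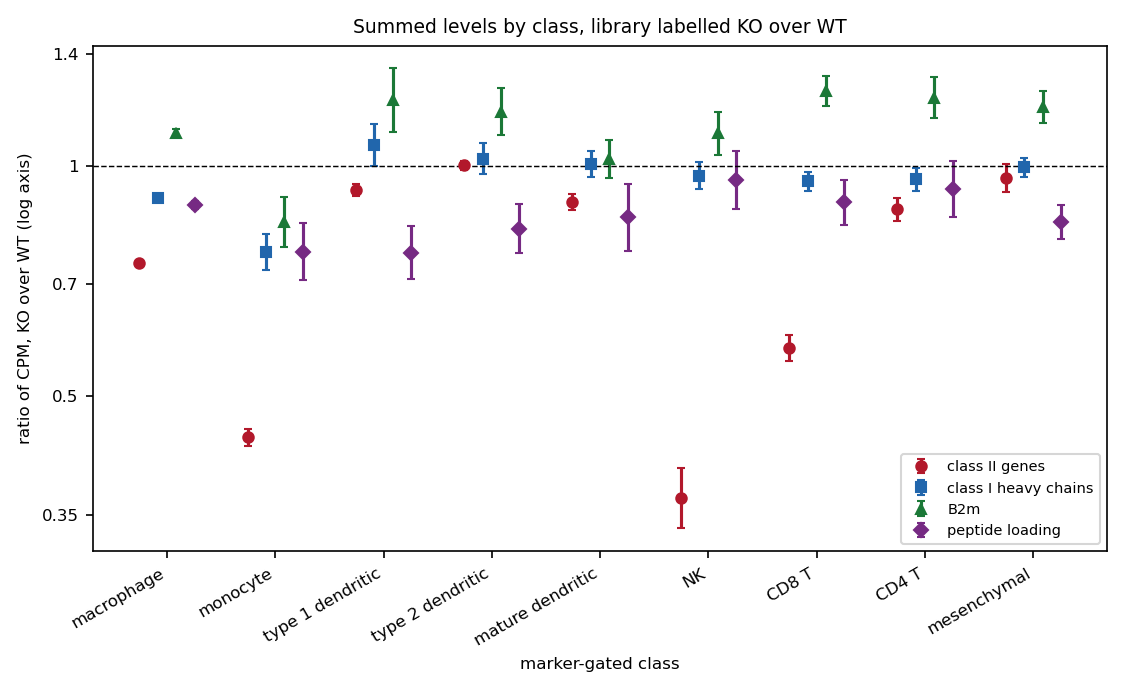
Ratio of KO over WT (log axis, 95% counting intervals) in each cell class for the summed class II genes, the summed class I heavy chains, B2m and the summed peptide loading genes. Class II lies furthest below 1 in NK cells and monocytes and at 1.00 in type 2 dendritic cells, while B2m lies above 1 in every class except monocytes.

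In macrophages, the genes of the class II molecule were lower in KO by similar amounts. H2-Aa (ENSMUSG00000036594, chr17:34282744-34287823, minus strand, mm10), the A alpha chain, had 4969 CPM in KO and 6711 CPM in WT. Its partner H2-Ab1 (ENSMUSG00000073421, chr17:34257689-34269419, plus strand), the A beta chain, had 5162 CPM in KO and 6891 CPM in WT. H2-Eb1 (ENSMUSG00000060586, chr17:34305867-34316674, plus strand), the E beta chain, had 5086 CPM in KO and 6334 CPM in WT. Cd74 (ENSMUSG00000024610, chr18:60803848-60812652, plus strand), the invariant chain that fills the groove of new class II molecules, had 11426 CPM in KO and 15751 CPM in WT. The ratios of KO over WT were 0.741, 0.749, 0.803 and 0.725 for the genes in that order.

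The genes that exchange peptides on class II molecules followed the same direction. H2-DMa, a chain of the editor H2-DM, which removes the invariant chain's remnant, had 746 CPM in KO macrophages and 981 CPM in WT macrophages. Its beta chains H2-DMb1 and H2-DMb2 had 457 and 34.6 CPM in KO, against 623 and 55.9 CPM in WT, and since they share 27.9% and 36.2% of their 50-base stretches, reads may have moved between them. H2-Oa and H2-Ob, the chains of the inhibitor of H2-DM, were at 4.98 and 9.03 CPM in KO and 5.46 and 10.8 CPM in WT. All 10 measured class II genes were below a log2 ratio of 0 in macrophages, with a median of -0.41 against -0.00 over all genes.

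Counted against a log2 fold of 0.5, after 5 CPM were added to both levels, 6 of 36 measured members were lower in KO macrophages and none was higher. Over all 15780 genes measured in macrophages, 1.03% were lower and 1.24% higher past that fold. The 6 were H2-DMb2 (-0.62), Ciita (-0.62), H2-Q7 (-0.58), H2-Q6 (-0.55), Tap1 (-0.52) and H2-T22 (-0.51), so they came from the class II, regulator, non-classical and loading genes. The highest ratios in macrophages were those of H2-Ke6 (0.14), B2m (0.14) and H2-K2 (0.07). When genes averaging at least 10 CPM alone were counted, an alternative added after the data had been seen, the same count of 6 stood among 25 members, against 1.85% of all such genes. Over all cells, 4 members were lower and 0 higher, against 1.15% and 1.23% of all genes.

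The macrophage difference lay mostly in the female-type cells of the KO library. Class II summed to 23595 CPM in 1710 female-type KO macrophages, to 35545 CPM in 754 male-type KO macrophages and to 37489.8 CPM in 3918 male-type WT macrophages. Within the KO library the female-type cells stood at 0.664 of the male-type cells (0.661 to 0.667), and between male-type cells of the 2 libraries the ratio of KO over WT was 0.948 (0.944 to 0.952). Of 36 measured members, 11 were lower and 0 higher past the fold in female-type against male-type KO macrophages, where 0.879% and 1.58% of all genes were. Between male-type KO and male-type WT macrophages no member passed the fold in either direction, where 1.24% of all genes were lower and 1.15% higher. These values do not separate sex from animal, because the female-type cells may come from 1 or several other mice.

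Single genes showed the same steps between the 3 kinds of macrophage. H2-Aa was at 4151 CPM in female-type KO, 6421 CPM in male-type KO and 6753 CPM in male-type WT macrophages. Cd74 was at 9724 CPM in female-type KO, 14368 CPM in male-type KO and 15778 CPM in male-type WT macrophages. H2-Eb1, at 4239, 6616 and 6356 CPM in the same order, was highest in male-type KO cells, so not every chain kept the order of the sum.

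Cell by cell, the KO library held many macrophages with almost no class II RNA. The median macrophage had 275 class II UMIs per 10000 in KO and 379 in WT, and 10% of cells lay below 12.9 in KO and below 131 in WT. Fewer than 50 class II UMIs per 10000 were found in 22.7% of KO macrophages (664 cells, 21.2 to 24.3%) and in 4.06% of WT macrophages (193 cells, 3.52 to 4.66%). By kind of cell, those shares were 31.7% of female-type KO, 7.69% of male-type KO and 3.83% of male-type WT macrophages. Median depth was 10191.5 UMIs in female-type KO, 11138.5 in male-type KO and 9641.5 in male-type WT macrophages, and its part in these class II values was not tested.

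**Figure D3:**
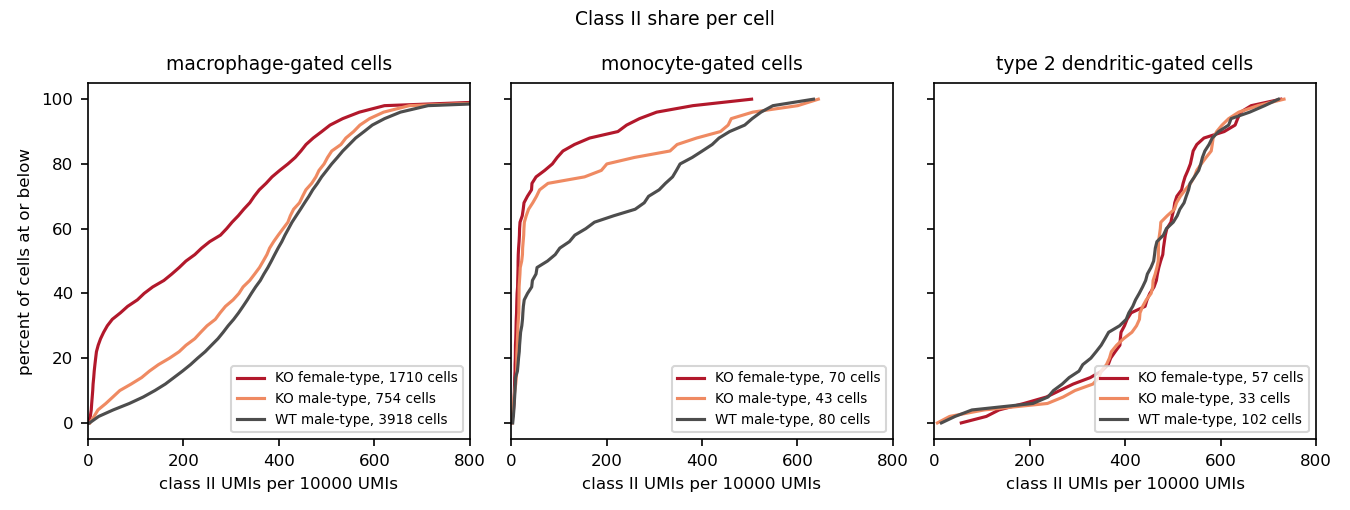
Cumulative share of cells (y axis) by class II UMIs per 10000 UMIs of the cell (x axis) for female-type KO, male-type KO and male-type WT cells, in macrophages, monocytes and type 2 dendritic cells. In macrophages the female-type KO curve lies above the other pair at low levels, with 31.7% of cells below 50. Median monocytes have 14.7 in female-type KO, 22.2 in male-type KO and 76.3 in male-type WT cells, and in type 2 dendritic cells the curves run close together.

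Class II chains were correlated from cell to cell. Across the macrophages of each library, the Spearman correlation of H2-Aa with H2-Ab1, on UMIs per cell scaled to depth, was 0.90 in 2920 KO cells and 0.81 in 4753 WT cells. With Cd74, H2-Aa reached 0.88 in KO and 0.76 in WT, and with H2-DMa 0.68 and 0.60. The classical chains H2-K1 and H2-D1 correlated at 0.55 in KO and 0.46 in WT, and the class II sum with the class I sum at 0.46 in KO and 0.24 in WT. The points share library, depth and cell states, so these values describe the cells and carry no test.

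Macrophages were also divided into 12 clusters found without the member genes. Class II was lower in KO in 10 of the 12, each with its interval below 1, and higher in 2. Among male-type cells alone, KO was above WT in clusters 0, 1, 2 and 18 and below it in clusters 3, 4, 5, 7, 8 and 17. Clusters 12 and 15 had too few male-type KO cells for a value. The lowest ratio was that of cluster 3, whose leading genes were Fcrls, Cbr2, Stab1 and Maf, with 12649 CPM in KO and 25874 CPM in WT (0.489). This cluster held 21.7% of KO and 6.29% of WT macrophages. By kind of cell it held 29.3% of female-type KO, 7.96% of male-type KO and 6.33% of male-type WT macrophages, with class II sums of 10529, 20048 and 26015 CPM in that order. Cluster 5, led by the proliferation gene Top2a, came next, with 22681 CPM in KO and 34973 CPM in WT (0.649). By kind of cell it had 17080 CPM in female-type KO, 33217 CPM in male-type KO and 34939.8 CPM in male-type WT macrophages. With each cluster weighted alike, an alternative added after the data had been seen, the macrophage ratio was 0.877.

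**Figure D4:**
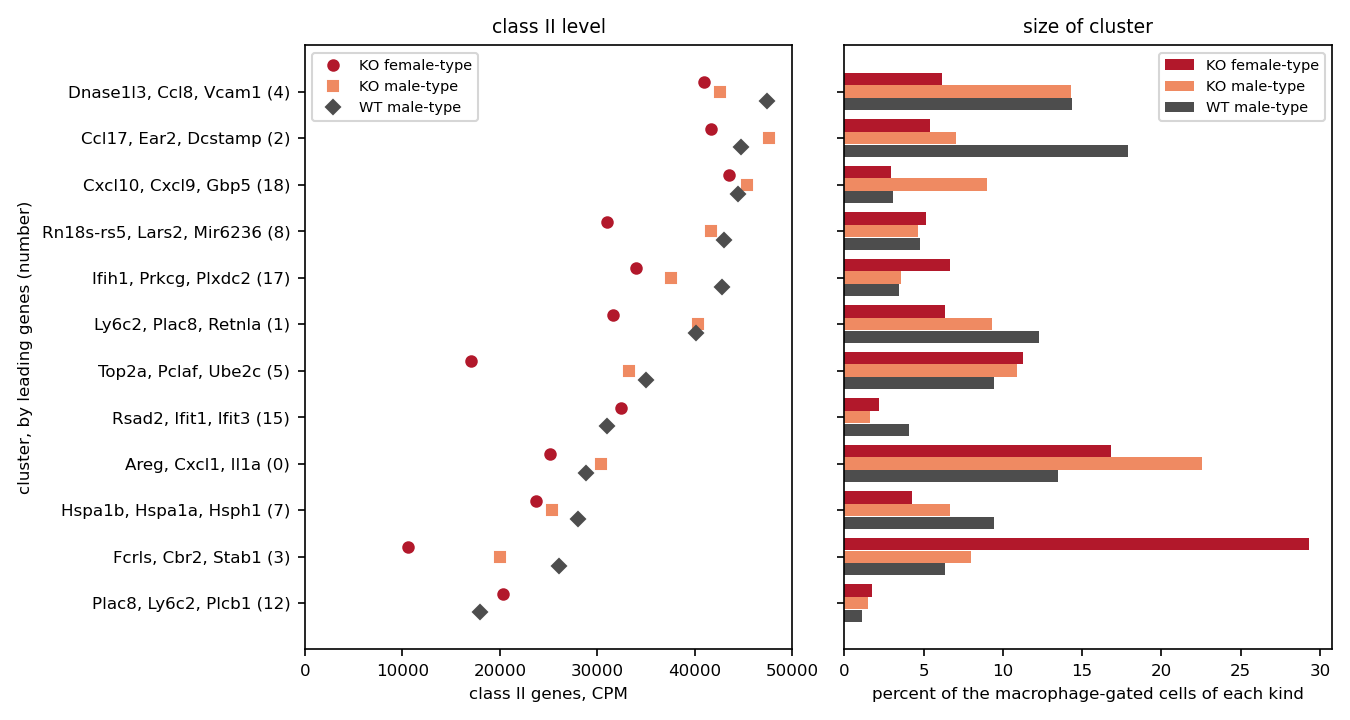
Class II level (CPM) and share of cells (%) of the 12 macrophage clusters for female-type KO, male-type KO and male-type WT cells, left to right. Cluster 3 has 10529 CPM in female-type KO cells and 26015 CPM in male-type WT cells, and holds 29.3% of female-type KO macrophages against 6.33% of male-type WT macrophages.

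Macrophages with at least 5 UMIs per 10000 of Folr2 and Fcrls together, genes known from tissue-resident macrophages, were also compared without clustering. Fcrls leads cluster 3 as well, so this grouping is not independent of that cluster, and it was not split by kind of cell. They made up 17.9% of KO and 3.98% of WT macrophages, and class II summed to 8489 CPM in KO and 18931 CPM in WT (0.448). In the macrophages below that level, class II was 31701 CPM in KO and 37954 CPM in WT, a ratio of 0.835. Both the share of such cells and the class II level within them thus differed between the libraries. Lyz2, a lysozyme gene of myeloid cells and no member, was at 4668 CPM in KO and 9821 CPM in WT macrophages, and its part in the result was not tested.

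Monocytes had the widest class II gap among the compared myeloid classes, and it was present in both kinds of KO cell. H2-Aa had 1581 CPM in KO and 3683 CPM in WT monocytes, H2-Ab1 2046 and 4339 CPM, H2-Eb1 1554 and 3092 CPM, and Cd74 3654 and 8844 CPM. Class II summed to 7313 CPM in 70 female-type KO, 11374 CPM in 43 male-type KO and 20847 CPM in 80 male-type WT monocytes, so male-type KO stood at 0.546 of male-type WT (0.526 to 0.565). Past the fold, 7 of 8 measured class II genes and 15 of 26 measured members were lower in KO and 0 were higher. In the same cells 20.7% of all 7191 measured genes were lower and 9.64% higher. The class II median was a log2 ratio of -1.11 against -0.13 over all genes.

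The extremes in monocytes were H2-Q6 (25 CPM in KO and 83.4 CPM in WT, -1.56), H2-DMb1 (182 and 504 CPM, -1.44) and Cd74 (-1.27). At the other end stood Pdia3, a disulfide isomerase of the loading complex, at 182 CPM in KO and 177 CPM in WT (0.04), H2-T23 at 125 and 127 CPM (-0.02) and H2-M3 at 34.0 and 35.8 CPM (-0.07). The median monocyte had 16.7 class II UMIs per 10000 in KO and 105 in WT. Lyz2 was at 3127 CPM in KO and 14755 CPM in WT monocytes, and the type 2 dendritic markers summed to 42.0 CPM in KO and 109 CPM in WT. The gated monocytes of the libraries thus differed well beyond the MHC genes, and the part of that difference in the class II values was not tested.

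Type 2 dendritic cells, the class with most class II RNA, were close between the libraries in their class II sum. In type 2 dendritic cells, H2-Aa had 7843 CPM in KO and 7712 CPM in WT, H2-Ab1 9617 and 9375 CPM, H2-Eb1 8576 and 7392 CPM, and Cd74 16324 and 17745 CPM. The class II sum was 45445 CPM in 57 female-type KO, 45957 CPM in 33 male-type KO and 44933 CPM in 102 male-type WT cells. Male-type KO stood at 1.02 of male-type WT (1.00 to 1.04), and female-type KO at 0.989 of male-type KO (0.970 to 1.01). Past the fold, 0 of 30 measured members were lower and 1 was higher, H2-Eb2, a second E beta gene, at 18.1 CPM in KO and 10.4 CPM in WT (0.59). Over all genes, 10.2% were lower and 7.04% higher. Erap1 (0.46) and H2-Q4 (0.24) followed at the high end, and Rfx5 (-0.49), Tapbp (-0.45) and Nlrc5 (-0.36) stood at the low end.

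Type 1 dendritic cells, which specialise in showing captured material on class I, had H2-Aa at 6220.1 CPM in KO and 6721 CPM in WT, H2-Ab1 at 8641 and 8576 CPM, H2-Eb1 at 6809.8 and 6489 CPM, and Cd74 at 13108 and 15641 CPM. Of 27 measured members, Tap1 was lower past the fold at 237 CPM in KO and 351 CPM in WT (-0.56), and Erap1 higher at 60.2 and 38.3 CPM (0.59), against 13.3% and 10% of all genes. The Erap1 interval, 0.93 to 2.69 as a ratio, included 1. Tapbp (-0.49), H2-DMb2 (-0.44), H2-Q6 (0.34) and B2m (0.28) were the other extremes.

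Mature dendritic cells had H2-Aa at 3377 CPM in KO and 3711 CPM in WT, H2-Ab1 at 2179.8 and 2209 CPM, H2-Eb1 at 3131 and 3338 CPM, and Cd74 at 5875 and 6941 CPM. Here 2 of 30 measured members were lower past the fold and 0 higher, against 12.6% and 8.58% of all genes. They were H2-DMb1, at 49.6 CPM in KO and 103 CPM in WT (-0.98), and the class I-like H2-M2, at 33.5 and 51.7 CPM (-0.56). The next lowest was H2-T22 (-0.40), and the highest were H2-M3 (0.40), H2-Q5 (0.22) and H2-Q4 (0.20). By kind of cell the class II sum was 12519 CPM in 53 female-type KO, 16864 CPM in 20 male-type KO and 17374 CPM in 121 male-type WT cells.

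In NK and T cells, a large part of the class II RNA lay in few cells, except in KO NK cells. Cells with at least 50 class II UMIs per 10000 numbered 1 of 77 in KO and 9 of 246 in WT NK cells, and these held 7.47% of the class II UMIs of NK cells in KO and 63.8% in WT. In CD8 T cells they were 6 of 160 in KO and 46 of 672 in WT, with 56.1% and 79.3% of the class II UMIs. In CD4 T cells they were 10 of 157 in KO and 19 of 182 in WT, with 77.9% and 83.5%. Among male-type CD8 T cells, 100% of KO and 92.1% of WT cells lay below that level. The remaining NK cells had 751 CPM of class II in KO and 847 CPM in WT. In the remaining T cells KO was higher, with 1217 CPM in KO and 1088 CPM in WT for CD8, and 1537 and 1367 CPM for CD4. The cut uses class II itself, so these remainders do not show a direction for the class. They were not split by kind of cell in WT. All 56 male-type KO CD8 T cells lay below the cut, at 966 CPM, which is under the 1088 CPM of the WT remainder.

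The class II genes of NK cells were H2-Aa at 123 CPM in KO and 356 CPM in WT, H2-Ab1 at 149 and 405 CPM, H2-Eb1 at 133 and 357 CPM, and Cd74 at 326 and 919 CPM. Past the fold, 7 of 27 measured members were lower in NK cells, 5 of them class II genes, and 1 was higher, against 11.5% and 7.07% of all genes. The lowest were H2-Aa (-1.5), Cd74 (-1.48) and H2-Ab1 (-1.41), and the highest H2-M3 (49.7 CPM in KO and 30.9 CPM in WT, 0.61), H2-K2 (0.28) and H2-Q4 (0.20). Markers of mature dendritic cells summed to 19.0 CPM in KO and 249 CPM in WT NK cells, and their part in the class II gap was not tested. After each cell was thinned to 1000 UMIs, Cd74 was found in 27.3% of KO and 32.0% of WT NK cells, beside 28.0% and 27.3% of mesenchymal cells, so these shares were near the level of a class not known for class II.

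CD8 T cells had H2-Aa at 420.1 CPM in KO and 822 CPM in WT, H2-Ab1 at 493 and 877 CPM, H2-Eb1 at 448 and 749 CPM, and Cd74 at 985 and 1710.2 CPM. Of 33 measured members, 8 were lower past the fold, 7 of them class II genes, and 1 was higher, against 8.32% and 4.42% of all genes. H2-DMb2 (3 UMIs in KO and 84 in WT), H2-Ob (0 and 30 UMIs) and H2-Aa (-0.96) were lowest, and H2-K2 (0.52), B2m (0.32) and Tap2 (0.31) highest. CD4 T cells had H2-Aa at 1009.9 CPM in KO and 1107 CPM in WT, H2-Ab1 at 995 and 1266 CPM, H2-Eb1 at 1041 and 1082 CPM, and Cd74 at 2266 and 2625 CPM. Their extremes were Rfx5 (-0.59), H2-DMb2 (-0.48) and H2-T22 (-0.43) at the low end and H2-Ob (18.8 CPM in KO and 7.30 CPM in WT, 0.95), Erap1 (0.54) and H2-Q4 (0.38) at the high end. In all, 1 member was lower and 2 were higher past the fold of 30 measured in CD4 T cells, against 11.1% and 8.7% of all genes.

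Mesenchymal cells had H2-Aa at 318 CPM in KO and 319 CPM in WT, H2-Ab1 at 275 and 269 CPM, H2-Eb1 at 287 and 266 CPM, and Cd74 at 467 and 549.6 CPM. Past the fold, 2 of 27 measured members were lower and 0 higher, against 4.57% and 2.74% of all genes. They were H2-Q7, at 13 CPM in KO and 21.3 CPM in WT (-0.55), and Tap1, at 59.8 and 89.4 CPM (-0.54). Tap2 (-0.38) came next, and H2-K2 (0.31), H2-Q6 (0.28) and H2-T10 (0.28) were highest.

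Both regulator genes Ciita and Nlrc5 were lower in KO macrophages and monocytes. Ciita (ENSMUSG00000022504, chr16:10480059-10528418, plus strand), the coactivator of class II genes, had 82.3 CPM in KO and 129 CPM in WT macrophages, and 30.4 and 77.5 CPM in monocytes. It was close between the libraries in type 2 dendritic cells, with 288 CPM in KO and 274 CPM in WT, in type 1 dendritic cells, with 206 and 223 CPM, and in mature dendritic cells, with 42.9 and 45.2 CPM. In other classes Ciita was low, at 4.39 CPM in KO and 11.3 CPM in WT NK cells, 16 and 23.6 CPM in CD8 T cells, 38.6 and 36.5 CPM in CD4 T cells, and 6.69 and 6.22 CPM in mesenchymal cells. By kind of macrophage it was at 67.4 CPM in female-type KO, 111 CPM in male-type KO and 129 CPM in male-type WT cells. The ratio of male-type KO over male-type WT was 0.861 (0.803 to 0.922).

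Nlrc5 (ENSMUSG00000074151, chr8:94434356-94527272, plus strand), the coactivator of class I genes, had 47.3 CPM in KO and 62.6 CPM in WT macrophages (-0.37), and 56.3 and 96.9 CPM in monocytes (-0.73). It was at 89.5 CPM in KO and 91.1 CPM in WT type 1 dendritic cells, 68.8 and 89.5 CPM in type 2, and 176 and 209.8 CPM in mature dendritic cells. Lymphocytes held 73.1 CPM in KO and 104 CPM in WT (NK), 225 and 197 CPM (CD8 T), and 173 and 166 CPM (CD4 T), and mesenchymal cells 94.5 and 102 CPM. The KO level was below WT in 7 of the 9 classes, with the interval below 1 in 3. Rfx5, which binds the X box of class II and class I promoters, was at 6.52 CPM in KO and 8.04 CPM in WT macrophages and no more than 20.9 CPM in any compared class.

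In macrophages and monocytes as whole classes, the classical class I chains differed far less than class II. Summed H2-K1 and H2-D1 stood at 0.931 of WT in macrophages and 0.802 in monocytes, where class II stood at 0.747 and 0.442. In type 1 and type 2 dendritic cells the classical ratios were 1.10 and 1.06, beside class II at 0.930 and 1.00. Among male-type macrophages the classical ratio was 1.08 (1.07 to 1.10), beside class II at 0.948. H2-K1 (ENSMUSG00000061232, chr17:33996017-34000347, minus strand) had 1400.3 CPM in KO and 1557 CPM in WT macrophages, and H2-D1 (ENSMUSG00000073411, chr17:35262730-35267499, plus strand) 1514 and 1573 CPM. Monocytes had 969 CPM of H2-K1 in KO and 1319 CPM in WT, and 1354 and 1579 CPM of H2-D1. Type 1 dendritic cells had H2-K1 at 1123 CPM in KO and 1057 CPM in WT and H2-D1 at 1318 and 1158 CPM, type 2 dendritic cells H2-K1 at 1330.5 and 1288 CPM and H2-D1 at 1416 and 1313 CPM, and mature dendritic cells H2-K1 at 2122 and 2183 CPM and H2-D1 at 1999 and 1929.7 CPM.

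Lymphocytes held high levels of both chains. NK cells had H2-K1 at 2035 CPM in KO and 2144 CPM in WT and H2-D1 at 1754 and 1727 CPM, CD8 T cells H2-K1 at 1924 and 2054 CPM and H2-D1 at 1586 and 1563 CPM, and CD4 T cells H2-K1 at 2458 and 2638 CPM and H2-D1 at 2006 and 1896 CPM. Mesenchymal cells had H2-K1 at 1558 CPM in KO and 1629 CPM in WT and H2-D1 at 1529.5 and 1482 CPM. None of these gaps passed the fold.

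Summed over all class I heavy chains, classical and non-classical, KO over WT was 0.907 in macrophages (0.90 to 0.914), 0.771 in monocytes (0.731 to 0.814), 0.954 in CD8 T cells (0.927 to 0.982) and 0.960 in CD4 T cells (0.926 to 0.994). In the other 5 compared classes the interval included 1, with ratios of 0.971 in NK, 0.995 in mesenchymal, 1.00 in mature dendritic, 1.02 in type 2 dendritic and 1.06 in type 1 dendritic cells. Over all cells the sums were 3597 CPM in KO and 4012 CPM in WT (0.897). Among male-type cells alone the direction turned in macrophages, with 4021 CPM in KO and 3756 CPM in WT, a ratio of 1.07 (1.06 to 1.08). Male-type monocytes had 3225 CPM in KO and 3397 CPM in WT, a ratio of 0.949 (0.882 to 1.02). The male-type ratio was 0.943 in CD8 T cells, with an interval that ended at 0.988, and 0.974 in CD4 T cells (0.923 to 1.03), and turned to 1.14 in NK cells (1.07 to 1.22). It was 0.621 in the 5 KO and 14 WT mesenchymal cells (0.557 to 0.691). In each dendritic class the male-type interval included 1, with 1.08 in type 1 (0.983 to 1.18), 1.04 in type 2 (0.973 to 1.11) and 1.04 in mature dendritic cells (0.968 to 1.11).

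The balance between the classical chains leaned to H2-D1 in the KO library. The ratio of H2-K1 to H2-D1 UMIs was 0.925 in KO macrophages (0.913 to 0.937) and 0.990 in WT macrophages (0.980 to 1.00), and it was lower in KO in 9 of the 9 compared classes, with separate intervals in 2. By kind of macrophage it was 0.904 in female-type KO (0.888 to 0.920), 0.95 in male-type KO (0.929 to 0.972) and 0.995 in male-type WT cells (0.984 to 1.01). The genes share 9.96% (H2-K1) and 14.9% (H2-D1) of their 50-base stretches with other genes, and read assignment between copies was not tested.

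B2m (ENSMUSG00000060802, chr2:122147686-122153083, plus strand), the light chain of all class I molecules, was higher in KO in 8 of the 9 classes, with the interval above 1 in 7, and lower in monocytes. Macrophages had 2129 CPM in KO and 1927 CPM in WT (1.10, 1.09 to 1.12), CD8 T cells 2149 and 1718 CPM (1.25, 1.20 to 1.31), CD4 T cells 2277 and 1856 CPM (1.23), and NK cells 2043 and 1854 CPM (1.10). Type 1 dendritic cells had 1486 CPM in KO and 1220.4 CPM in WT (1.22), type 2 dendritic cells 1572 and 1337 CPM (1.18), mesenchymal cells 1306 and 1095 CPM (1.19), and mature dendritic cells 2719.7 and 2664 CPM (1.02, 0.964 to 1.08). Monocytes had 1508 CPM in KO and 1787 CPM in WT (0.844, 0.783 to 0.910).

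Among male-type cells, B2m was higher in KO in most but not all of these classes. Male-type macrophages had 2402 CPM in KO and 1912 CPM in WT (1.26, 1.24 to 1.28), and female-type KO macrophages 1968 CPM. The male-type ratio was 1.31 in CD8 T cells (1.22 to 1.41), 1.24 in CD4 T cells (1.13 to 1.36), 1.16 in NK cells (1.03 to 1.29), 1.20 in type 1 dendritic cells (1.04 to 1.38) and 1.15 in type 2 dendritic cells (1.04 to 1.27). In the remaining 3 classes the direction turned and the interval included 1, with 1.03 in monocytes (0.933 to 1.14), 0.912 in mature dendritic cells (0.819 to 1.01) and 0.894 in mesenchymal cells (0.744 to 1.07).

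Among the class I genes, H2-Q6 and H2-Q7 differed widely between cell classes. H2-Q7 (ENSMUSG00000060550, chr17:35439155-35443773, plus strand), which encodes Qa-2, had 584 CPM in KO and 632 CPM in WT NK cells, 678 and 779 CPM in CD8 T cells, 735 and 888 CPM in CD4 T cells, and 677 and 676 CPM in mature dendritic cells. It had 149 CPM in KO and 225 CPM in WT macrophages and 86.7 and 158 CPM in monocytes. With 13 CPM in KO and 21.3 CPM in WT, mesenchymal cells were lowest of the compared classes. Its neighbour H2-Q6 followed, with 61.0 and 91.5 CPM in macrophages, 280.3 and 319.8 CPM in CD8 T cells, 358 and 357 CPM in mature dendritic cells, and 10.6 and 7.86 CPM in mesenchymal cells, each with KO first. H2-Q4, H2-Q5, H2-Q6 and H2-Q7 share 24.4% to 36.4% of their 50-base stretches with other genes, so their separate values are uncertain.

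H2-T23, which encodes Qa-1, the ligand of the CD94 and NKG2A receptor of NK cells, was close between the libraries in each class, while its level differed between classes. It had 117 CPM in KO and 119 CPM in WT macrophages, 125 and 127 CPM in monocytes, 159 and 161 CPM in type 2 dendritic cells, 95.1 and 109 CPM in NK cells, 206 and 181 CPM in mature dendritic cells, and 52.0 and 46.2 CPM in mesenchymal cells. The interval of its ratio included 1 in every compared class. By kind of macrophage, H2-T23 was at 97.3 CPM in female-type KO, 151 CPM in male-type KO and 119 CPM in male-type WT cells, so the library value averaged cells on both sides of WT.

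H2-T22, a ligand of a subset of gamma delta T cells, was below WT in 9 of the 9 classes, with the interval below 1 in 3. It had 40.2 CPM in KO and 59.6 CPM in WT macrophages, 41.1 and 101.3 CPM in monocytes, and 96.8 and 133 CPM in CD4 T cells, and it shares 34.5% of its 50-base stretches with H2-T10 and other genes. H2-M3, which presents formylated bacterial peptides, had 57.3 CPM in KO and 55.3 CPM in WT macrophages and ranged from 34.0 to 59.7 CPM in KO and from 30.9 to 72.5 CPM in WT over the compared classes. Non-classical genes held 14.9% of class I heavy chain UMIs in KO macrophages and 17.1% in WT, 14.2% and 17.4% in monocytes, 20.6% and 23.2% in type 2 dendritic cells, 29.6% and 30.8% in CD8 T cells, and 9.37% and 9.14% in mesenchymal cells.

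**Figure D5:**
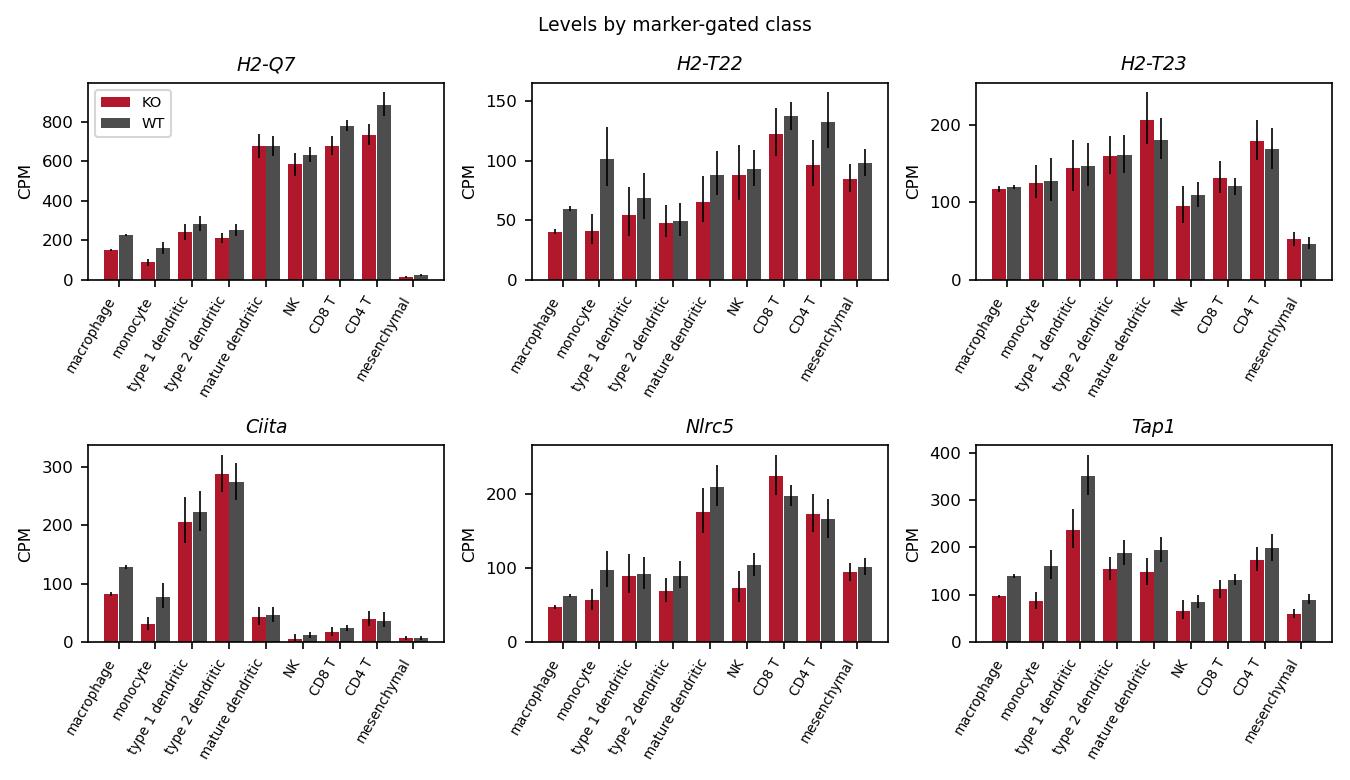
Level (CPM, exact Poisson 95% intervals) of H2-Q7, H2-T22, H2-T23, Ciita, Nlrc5 and Tap1 in each of the 9 cell classes, KO left of WT. H2-Q7 is high in lymphocytes and mature dendritic cells and at 13 and 21.3 CPM in mesenchymal cells, Ciita peaks in type 1 and type 2 dendritic cells, and H2-T23 is close between KO and WT within each class.

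Peptide loading genes, taken as a sum, were lower in KO in all 9 classes, with the interval below 1 in 7. The sums were 1423 CPM in KO and 1603 CPM in WT macrophages (0.888), 1074 and 1390.2 CPM in monocytes (0.772), 1742 and 2261 CPM in type 1 dendritic cells (0.770) and 1023 and 1212 CPM in mesenchymal cells (0.844). In NK cells (0.958, 0.877 to 1.05) and CD4 T cells (0.933, 0.858 to 1.01) the interval included 1. Among male-type cells the ratio was 0.963 in macrophages (0.945 to 0.981), 0.732 in monocytes (0.643 to 0.831), 0.734 in type 1, 0.931 in type 2 and 0.807 in mature dendritic cells, 0.862 in NK, 0.888 in CD8 T and 0.870 in CD4 T cells, and 0.649 in mesenchymal cells. Of these male-type intervals, those of type 2 dendritic cells (0.835 to 1.04) and NK cells (0.723 to 1.02) included 1. The male-type KO cells numbered only 10 in type 1 dendritic, 19 in NK and 5 in mesenchymal cells. Tap1 (ENSMUSG00000037321, chr17:34187553-34197225, plus strand), a chain of the pump that carries peptides into the endoplasmic reticulum, was below WT in 9 of the 9 classes, with 96.0 CPM in KO and 139 CPM in WT macrophages and 85.8 and 161 CPM in monocytes. By kind of macrophage it was at 81.8 CPM in female-type KO, 120.3 CPM in male-type KO and 138 CPM in male-type WT cells. Tap1 overlaps Psmb9 in the annotation, and neither labels nor file headers say whether the counting used strand.

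The other loading genes did not all follow. Tapbp, the tapasin that bridges the pump to class I, had 198 CPM in KO and 234 CPM in WT macrophages and was below WT in 9 of the 9 classes, and Calr, the chaperone calreticulin, had 803 and 908 CPM and was below WT in 8. Tap2, the partner chain of Tap1, had 48.2 CPM in KO and 53.3 CPM in WT macrophages. Pdia3 had 249 CPM in KO and 240.3 CPM in WT macrophages and was below WT in 3 of the 9 classes. Erap1, the trimming peptidase of the endoplasmic reticulum, had 28.6 CPM in KO and 27.3 CPM in WT macrophages, and its interval included 1 in every compared class. Over all cells, the lowest members were Ciita (-0.56), H2-Q7 (-0.54) and Tap1 (-0.50) and the highest B2m (0.12), H2-K2 (0.10) and H2-Ke6 (0.09).

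Genes of the same pathway that are not members formed 6 lists with 41 genes measured in macrophages. No gene of the lists passed the fold in either direction. Over all genes 1.03% were lower and 1.24% higher, so a count of 0 is near that share. The immunoproteasome and its activator were below a log2 ratio of 0 in 5 of 5, with a median of -0.21, and Psmb8 at 366 CPM in KO and 454 CPM in WT (-0.31). Of the interferon gamma axis, which drives Ciita and Nlrc5, 11 of 14 were below 0 with a median of -0.09. The proteases and helpers of the class II path had a median of 0.01 over 6 genes, with Lgmn, a lysosomal protease, at 1111 CPM in KO and 907 CPM in WT (0.29). The chaperones and promoter factors had a median of 0.11 over 11, with Hspa5, the chaperone BiP, at 556 CPM in KO and 428 CPM in WT (0.37). The costimulatory genes Cd80, Cd86 and Cd40 had a median of -0.10, and 2 genes of the CD1 list were measured. The median over all genes in macrophages was -0.00.

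Cell classes with under 20 cells in a library gave levels only, and their sums are too small to stand for a class. In 65 KO and 12 WT neutrophils, which are not known for class II, the class II genes were lower in KO: Cd74 at 923 CPM in KO and 3188 CPM in WT, H2-Aa at 344 and 1342 CPM, H2-Ab1 at 385 and 1294 CPM, and H2-Eb1 at 349 and 575 CPM. Their class I genes were H2-K1 at 569 CPM in KO and 815 CPM in WT, H2-D1 at 1138 and 1822 CPM, and B2m at 1241 and 1270.5 CPM. Ciita had no UMI in the neutrophils of either library, and Nlrc5 was at 46.2 CPM in KO and 0 in WT.

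In 16 KO and 15 WT plasmacytoid dendritic cells, the interferon-producing relatives of the other dendritic cells, class II genes were above WT. Cd74 was at 4247 CPM in KO and 3491 CPM in WT, H2-Aa at 2006 and 982 CPM, H2-Ab1 at 1667 and 994 CPM, and H2-Eb1 at 995 and 691 CPM. Class I was closer, with H2-K1 at 2013 CPM in KO and 2255 CPM in WT, H2-D1 at 1755 and 1891 CPM, and B2m at 1939 and 1721 CPM. Of the regulators, Ciita was at 7.37 CPM in KO and 0 in WT and Nlrc5 at 118 and 60.6 CPM.

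B cells, with 14 in KO and 11 in WT, showed the class II profile known for them, including the H2-O genes. Cd74 was at 8994 CPM in KO and 9820.2 CPM in WT, H2-Aa at 2898 and 3804 CPM, H2-Ab1 at 2874 and 4679.6 CPM, and H2-Eb1 at 3153 and 2835 CPM. H2-Oa was at 278 CPM in KO and 277 CPM in WT, and H2-Ob at 255 and 277 CPM, where macrophages had no more than 10.8 CPM of either. The H2-O genes were not confined to B cells. H2-Ob was found in 74.3% of KO and 72.6% of WT type 1 dendritic cells, and H2-Oa in 70.1% and 65.6% of type 2 dendritic cells. Ciita was at 116 CPM in KO and 138 CPM in WT B cells. Their class I genes were H2-K1 at 1252 CPM in KO and 1982 CPM in WT, H2-D1 at 1113 and 1337 CPM, B2m at 1229 and 1475 CPM, and Nlrc5 at 92.7 and 0 CPM.

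Mast cells or basophils, 19 in KO and 29 in WT, held the lowest Cd74 of any class, at 209.9 CPM in KO and 212 CPM in WT. Other class II chains were H2-Aa at 134 CPM in KO and 117 CPM in WT, H2-Ab1 at 172 and 159 CPM, and H2-Eb1 at 209.9 and 84.9 CPM. Class I was at 829.99 CPM in KO and 892 CPM in WT for H2-K1, 1021 and 1024 CPM for H2-D1, and 1546 and 1401 CPM for B2m, while Ciita had 9.54 and 0 CPM and Nlrc5 0 and 5.31 CPM. Plasma cells were found in KO only, and the 5 cells had Cd74 at 1587 CPM, H2-Aa at 142 CPM, H2-Ab1 at 296 CPM, H2-Eb1 at 237 CPM, H2-K1 at 1398 CPM, H2-D1 at 1197 CPM, B2m at 2405 CPM, Nlrc5 at 35.5 CPM and no UMI of Ciita.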

How the data were processed

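The authors deposited 1 sparse matrix of raw UMI counts (genes by barcodes) for each library. Per the file headers, the counts were made with Cell Ranger 8.0.1. The submitters' processing notes name mm10 as the build and Seurat 3 as a tool. Neither strand use in counting nor the chemistry is settled: the barcodes have 16 bases, and no source ties that length to the bead chip of the labels' protocols. Coordinates are from GENCODE M21.

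Barcodes with at least 500 UMIs, 200 genes and at most 25% mitochondrial UMIs were kept. Scrublet's automatic threshold marked 1 KO and 0 WT barcodes, so the highest 5% of scores were left out, 319 in KO and 457 in WT. Cells entered a class by a minimum number of detected markers (5 for macrophages, 3 or 4 for others). These minimums, the sex calls (Xist against Ddx3y, Uty, Kdm5d and Eif2s3y) and the cell kinds were set after the data had been seen. Clusters (scanpy 1.11.5, 2000 variable genes without members, 30 components, 15 neighbours, resolution 1, seed 0) divided the macrophages.

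UMIs were summed per library and class and given as CPM. Log2 ratios are KO over WT after adding 5 CPM to both. Past the fold means 0.5 or more in either direction, for genes with at least 20 UMIs over both libraries. Intervals are exact Poisson for levels, exact conditional binomial for ratios and Clopper-Pearson for shares. CPM is not divided by gene length, so levels are compared within a gene or a sum. Genes sharing 50-base stretches were found by comparing the last 1000 bases of their transcripts.

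H2-K1, H2-D1, B2m, Cd74, H2-Aa, H2-Ab1, H2-Eb1, Ciita and Nlrc5 are named in every class, with the 3 highest and 3 lowest members per compared class; other named genes were picked after their values were seen. The members and lists were chosen with earlier results of these data known. The comparison was tested on simulated data: of genes planted in macrophages at a log2 ratio of 1 in either direction, 70 of 100 higher and 53 of 100 lower genes were recovered, and 103 of the 104 that averaged at least 10 CPM, so low genes were often missed.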

Additional observations from a re-analysis of the deposited data

Results flagged for a closer look

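The ratio of KO over WT for B2m went in opposite directions in different cell classes. It was 1.25 in CD8 T cells (1.20 to 1.31) and 0.844 in monocytes (0.783 to 0.910), and the difference between the classes was not tested. Among male-type cells alone, the ratio was 1.31 in CD8 T cells and 1.03 in monocytes (0.933 to 1.14), so the lower level of monocytes was not present there.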

How the results depend on the processing

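With 1 library per label no replicate could be left out, and spread between animals is unknown. No paired analysis was possible because each label has 1 library. The class II ratio of KO over WT stayed below 1 under all 9 alternatives over all cells and all 12 in macrophages, but its size depended on the kind of cell. Over all cells, class II was 0.751 with 10% of doublet scores left out, 0.745 after thinning to 1000 UMIs, 0.744 scaled without mitochondrial and top 50 genes, 0.762 scaled by the median gene ratio, 0.949 in male-type cells, 0.680 for female-type KO against all WT cells and 0.741 without both-type cells. Class I over all cells was 0.882 after thinning, 0.890 and 0.912 under those scalings, 0.834 for female-type KO cells and 0.887 without both-type cells, and turned to 1.00 (1.001) in male-type cells. In macrophages, class II was 0.741 with no doublet removal, 0.749 with 10% left out, 0.719 after thinning, 0.735 without the top genes, 0.948 in male-type cells, 0.631 for female-type KO cells, 0.739 without both-type cells, 0.729 with clusters in place of the gate, 0.753 with 1 more marker and 0.877 with clusters weighted alike. Class I in macrophages was 0.894 without the top genes, 0.817 for female-type KO cells, 0.946 with clusters weighted alike and turned to 1.07 in male-type cells. The 6 members lower in macrophages became 0 in male-type cells, 13 for female-type KO cells and 2 with a pseudocount of 20 CPM, and 4 to 7 under the other 13 alternatives. Leaving out both-type cells, weighting clusters alike and the minimum of 10 CPM were added after seeing the data. The cause was not tested. Members near 5 CPM have ratios shrunk by the pseudocount.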
